A study of Mus musculus with 8 samples.

Results

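The DNA replication and replication licensing genes described here are 45 mouse genes whose products mark replication origins, load and start the MCM helicase, copy DNA at the fork, and rebuild chromatin behind it. They were chosen by name. All 45 were found by gene symbol among the 38392 genes of the deposited table. The table holds RNA-seq values of eosinophils sorted by flow cytometry from wildtype female mice of strain C57/BL6, whose age is given only for the study as a whole, with 4 libraries from bone marrow and 4 from small intestine. Neither group was treated, and no transgene was carried. Intestinal cells were sorted as CD11b+, MHC-II-, SiglecF+ and SSChi after removal of the epithelium, warm enzymatic digestion and enrichment on beads against CD11b, and bone marrow cells as CD11b+, Ly6G-, Ly6C-, SiglecF+ and SSChi without digestion or beads. Tissue, gate and handling therefore changed together and cannot be told apart. Libraries are named after the table's columns. Values in each library are given throughout in the order BM_1, BM_3, BM_4 and BM_5 (bone marrow), then SI_6, SI_7, SI_10 and SI_11 (small intestine).

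A cell licenses its origins once per division. The origin recognition complex binds DNA, CDC6 and CDT1 join it, and together they load the ring of MCM2 to MCM7, while geminin holds CDT1 in check so that DNA is not copied again. In S phase CDC45 and the GINS complex turn the loaded ring into the active CMG helicase, polymerase alpha with primase lays down primers, and polymerases epsilon and delta extend them on the PCNA clamp. Many of these genes are transcribed under control of E2F factors in cycling cells and are shut down when cells leave the cycle. Eosinophils arise in the bone marrow from dividing precursors, and mature eosinophils of tissues are regarded as cells that no longer divide.

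The labels were compared with marker genes of several cell types. Reads were recovered from the deposited values, and the totals per library were 11508002 (SI_7) to 21289164 (BM_3) reads. In bone marrow the 13 genes found of a neutrophil precursor list, which includes Mpo and Elane, summed to 41944 to 49295 RPM (reads per 1000000 reads of the library), against 50.8 to 70.2 in small intestine, and all 13 were lower there. A list of 10 eosinophil genes summed to 211 to 373 RPM in bone marrow, with the highest value in BM_5, and to 2150 to 2684 in small intestine, with the lowest in SI_6. Of the 10, 5 were lower in small intestine, 4 were higher and 1 was not called. Reads of Mpo, the neutrophil granule peroxidase, outnumbered those of Epx, the eosinophil peroxidase, by a factor of 319 in BM_5 to 519 in BM_1, and by 4.78 to 14.7 in small intestine. In the libraries labelled bone marrow eosinophils the markers of the labelled cell type therefore lay far below those of neutrophil precursors, and they are called bone marrow libraries below. In small intestine 12 epithelial markers summed to 2118 RPM in SI_6, 957 in SI_7, 334 in SI_10 and 325 in SI_11, against 17.8 to 38.8 in bone marrow, and each of the 12 was highest in SI_6. Progenitor markers (8 genes) summed to 722 to 835 RPM in bone marrow against 239 to 371 in small intestine, erythroid markers (12 genes) to 100.3 to 122 and 7.51 to 15.6, and monocyte and macrophage markers (12 genes) to 594 to 774 and 983 to 1043. Markers of B and plasma cells (12 genes) summed to 139.8 to 192 and 246 to 1258, those of fibroblasts and endothelium (10 genes) to 28.2 to 37.2 and 516 to 582, those of T cells (10 genes) to 4.55 to 7.99 and 10.7 to 17.1, and those of mast cells and basophils (10 genes) to 19.1 to 26.7 and 1.65 to 3.67. The part of these other transcripts in the differences below was not tested. In bulk RNA, fewer cells of a type and less RNA per cell cannot be told apart.

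Promoter letters are shown because E2F factors are well known activators of this gene group. RefSeq promoters of build GRCm38.p6, each with 250 bases before and 50 after the start, were matched for 37 of the 45 members. The E2F-like letters sought on both strands were TTCCCGC, the variant with TTCGCGC, the variant with TTGCCGC and also TTGGCGC. At least 1 of them was present in a promoter of 26 of these 37 genes (70.3%). A member with more than 1 promoter was counted if any of them held the letters. The same letters were in 14.6% of 16060 protein-coding genes with a promoter in the table, and in 23.0% of 3298 other genes that were lower in small intestine and averaged 10 reads or more. GC content had a median of 61.3% in member promoters, 57.3% in those of protein-coding genes and 60.3% in those of the other lower genes. The 120 bases before the start, 5′ to 3′ on the gene's strand with the E2F-like letters in capitals, follow for 3 members with large differences (Mcm6, Chaf1a, Uhrf1), for Rpa2 with a small difference, and for Cdc45, which had a large difference and none of these letters.
Mcm6, chr1:128359706-128359825, minus strand: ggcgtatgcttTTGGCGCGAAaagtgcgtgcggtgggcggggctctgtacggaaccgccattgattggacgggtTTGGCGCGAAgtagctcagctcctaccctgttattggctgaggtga
Chaf1a, chr17:56040296-56040415, plus strand: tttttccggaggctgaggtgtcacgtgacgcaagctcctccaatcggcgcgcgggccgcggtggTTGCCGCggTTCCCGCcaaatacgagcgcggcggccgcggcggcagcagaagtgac
Uhrf1, chr17:56303217-56303336, plus strand: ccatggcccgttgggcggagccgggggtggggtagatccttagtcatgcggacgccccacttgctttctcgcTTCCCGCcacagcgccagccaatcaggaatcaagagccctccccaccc
Rpa2, chr4:132768240-132768359, plus strand: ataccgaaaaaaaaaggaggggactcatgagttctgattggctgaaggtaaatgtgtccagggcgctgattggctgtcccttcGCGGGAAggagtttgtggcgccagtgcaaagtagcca
Cdc45, chr16:18811973-18812092, minus strand: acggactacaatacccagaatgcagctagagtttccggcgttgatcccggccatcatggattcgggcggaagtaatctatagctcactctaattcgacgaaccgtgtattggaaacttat
The Mcm6 window held 4 matches in 2 runs, because matches on the 2 strands overlapped. By GENCODE M21 the windows of Mcm6 and Chaf1a lay outside annotated genes, the last 16 bases of the Uhrf1 window, 28 of Rpa2 and 15 of Cdc45 fell inside the gene itself, and 106 bases of the Cdc45 window lay in exons of Ufd1 on the other strand. The pentamer CCAAT, read on both strands, was in a promoter of 24 of the 37 members (64.9%) and in 42.1% of protein-coding genes. The letters TTTGAA were in a promoter of 5 members (13.5%) and in 17.3% of protein-coding genes. The median difference of members with the E2F-like letters was -3.12 (26 genes) and that of members without them -2.59 (11 genes), and the ranges overlapped, from -5.45 to -1.03 and from -4.21 to -0.93.

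Replication genes were lower in the small intestine libraries with few exceptions. Of the 45 members, 43 were lower, 0 were higher and 2, Rfc2 and Fen1, did not pass the test (limma, 2-sided, Benjamini-Hochberg adjusted p under 0.05 over all 38392 genes). Among all genes 12.9% were called lower and 22.0% higher, and among the 16215 genes that averaged 10 reads or more, which include 44 of the members, 28.6% were called lower. The deposited scale is log2-like, and on it a step of 1 is close to a 2-fold change in a well-covered gene. The median difference of the members, small intestine minus bone marrow, was -2.81, with a range from -5.45 for Uhrf1 to 0.38 for Rfc2, and the median of all genes was 0.37. The members called were lower by more than 2 units in 33 cases (3.54% of all genes) and by more than 4 units in 10 cases (0.500% of all genes). All 4 bone marrow libraries lay above all 4 small intestine libraries in 43 members, while 13.9% of all genes were apart in this direction and 20.3% in the other, in which 0 members were. After each library was centred on its own median, which moved the median of all genes to -0.53, 10216 of 14501 called genes were lower, against 4937 of 13402 without it, and 44 members were lower with a median of -3.71. Tested against a fall of 1 unit, 37 members passed, with 4.21% of all genes. Per the study's methods each group came from 4 mice, and the p-values measure the spread between these libraries. Together the 45 genes took 4335, 4266, 4754 and 4172 RPM in bone marrow against 710, 579, 539 and 529 in small intestine. Without SI_6, the library with the most epithelial reads, the median difference was -2.97 and 44 members were lower.

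**Figure D1:**
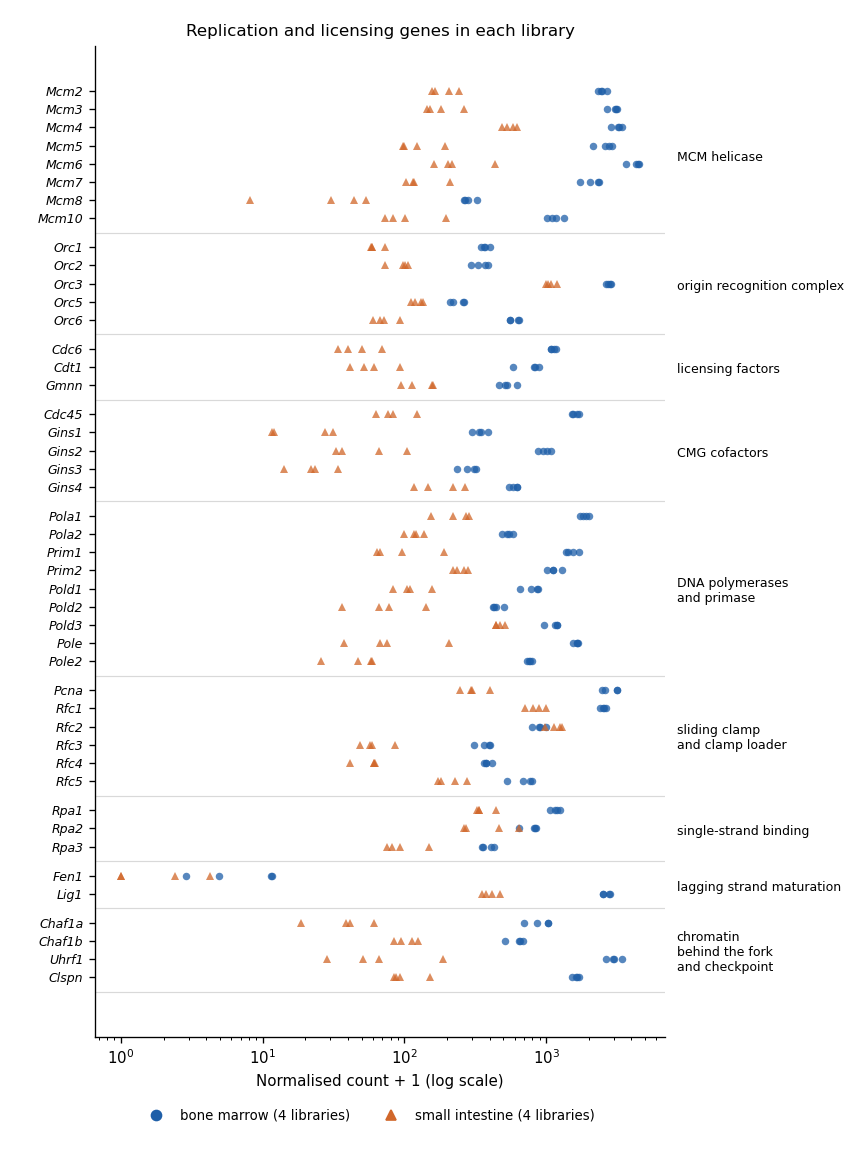
Normalised count plus 1 (x axis, log scale) of each of the 45 members in every library, by role. Blue circles are the 4 bone marrow and orange triangles the 4 small intestine libraries. The colours are apart in 43 members and overlap in Rfc2 and Fen1, and Fen1 lies far to the left of the others.

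**Figure D2:**
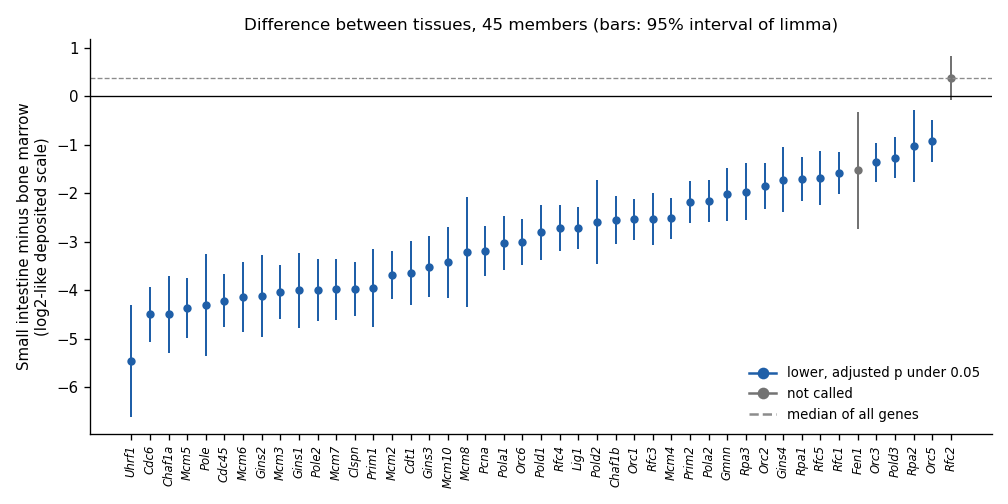
Difference between tissues of each member (y axis, deposited log2-like scale), from the largest fall, Uhrf1, to Rfc2, with bars for the 95% interval of limma. Of the 45 points, 43 are called lower (blue), and the dashed line marks the median of all genes at 0.37. The interval of Fen1 lies below 0 but its adjusted p is 0.0503.

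The origin recognition complex, which marks where replication can start, had smaller falls by its median than the loading factors and the helicase. Differences below are given ± the standard error (SE) of limma. All 5 of its members were lower, with a median difference of -1.85 and a range from -3.00 to -0.93. Orc6 fell the most, from 559, 644, 633 and 554 normalised counts (recovered reads divided by the size factor of the library) in bone marrow to 92.8, 70.7, 59.1 and 66.4 in small intestine, a difference of -3.00 ± 0.20. Orc1, the subunit whose level follows the cell cycle, had 403, 348, 372 and 364 normalised counts in bone marrow against 72.0, 58.2, 56.9 and 58.1 in small intestine (-2.53 ± 0.18). Orc2 had 329, 367, 294 and 388 in bone marrow against 99.3, 72.1, 97.4 and 104 in small intestine (-1.85 ± 0.20), but 29.8% of its exon bases are shared with Nif3l1 on the other strand. The 2 most weakly changed subunits kept a clear level in small intestine. Orc3 had 2872, 2649, 2816 and 2722 normalised counts in bone marrow against 999.9, 1029, 1076 and 1192 in small intestine (-1.36 ± 0.17, adjusted p 0.000336), and Orc5 had 264, 210.0, 258 and 220.3 in bone marrow against 135, 111, 118 and 129 in small intestine (-0.93 ± 0.18, adjusted p 0.00405). In both the 2 groups of libraries were apart. Orc4, the remaining subunit of the complex, is not among the 45 and was singled out after its values were seen. It stood at 481, 451, 411 and 477 in bone marrow against 408, 509, 408 and 517 in small intestine, overlapping groups with a difference of 0.01 ± 0.18 and an adjusted p of 0.968. The subunits of the complex thus ranged from no detected change in Orc4 to falls of more than 2 units in Orc1 and Orc6.

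The loading factors fell further than most of the complex they join. Cdc6 (ENSMUSG00000017499, chr11:98907801-98923940, plus strand), the ATPase that closes the MCM ring onto DNA, went from 1082, 1135, 1167 and 1080.3 normalised counts in bone marrow to 68.8, 38.8, 49.2 and 33.2 in small intestine. Its difference was -4.50 ± 0.24 with an adjusted p of 4.09e-06, the lowest among the 45 members. Cdt1, which brings the ring to the origin, had 895, 823, 836 and 586 in bone marrow against 91.7, 59.6, 40.5 and 51.0 in small intestine (-3.65 ± 0.28), with BM_5 lowest in bone marrow and SI_6 highest in small intestine. Gmnn, which encodes the CDT1 inhibitor geminin, fell less, from 619.8, 531, 508 and 462 in bone marrow to 158, 112, 94.1 and 155 in small intestine (-2.02 ± 0.23). The ratio of Gmnn to Cdt1 reads was 0.693, 0.645, 0.608 and 0.789 in bone marrow against 1.73, 1.88, 2.32 and 3.05 in small intestine. Gmnn has fewer exon bases than Cdt1, and per length its level was the higher of the pair in both tissues (47.1 ± 4.45 against 32.5 ± 5.55 in bone marrow, 13.7 ± 2.26 against 3.003 ± 0.988 in small intestine). On the log2 scale the ratio was 1.67 higher in small intestine (exact 2-sided permutation test over 70 assignments, p = 0.0286, which is the lowest value possible here, adjusted p = 0.0381 over 8 ratios).

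The genes named MCM fell together. All 8 were lower, with a median difference of -3.83 and a range from -4.37 to -2.52. The genes of the ring itself, Mcm2 to Mcm7, summed to 1214 to 1488 RPM in bone marrow against 75.2 to 124 in small intestine, where SI_6 was highest. Mcm5 (ENSMUSG00000005410, chr8:75109569-75128439, plus strand) had 2786, 2609.9, 2934 and 2133 normalised counts in bone marrow against 191, 98.5, 96.3 and 121 in small intestine, the largest fall of the 8 (-4.37 ± 0.26). Mcm6 (ENSMUSG00000026355, chr1:128331590-128359664, minus strand), the ring subunit with the highest level per length in bone marrow, had 4466, 4278, 4550.1 and 3639.7 in bone marrow against 438, 215, 162 and 201 in small intestine (-4.14 ± 0.31). In both genes the tissues were far apart, and SI_6 was the highest small intestine library. Mcm4 had 3247, 3202, 3439 and 2876 in bone marrow against 584, 533, 486 and 622 in small intestine, a smaller fall than its partners (-2.52 ± 0.18), and its small intestine libraries differed little. Mcm7, which carries the miRNA genes Mir25 and Mir93 within it, had 2364, 2054, 2318 and 1739 in bone marrow against 208, 114, 102 and 116 in small intestine (-3.98 ± 0.26). Read per length of exon, as reads per kilobase per 1000000 such units (mean ± SD of 4 libraries), the bone marrow levels were 46.8 ± 7.26 for Mcm2, 105 ± 13.9 for Mcm3, 117 ± 17.5 for Mcm4, 85.8 ± 15.8 for Mcm5, 119 ± 17.5 for Mcm6 and 62.6 ± 10.8 for Mcm7. In small intestine Mcm4 stood at 24.2 ± 0.554 on this scale, and the other 5 ring genes lay between 4.33 ± 0.866 for Mcm2 and 8.42 ± 3.77 for Mcm6. In small intestine Mcm4 thus stood above the rest of the ring, which it did not in bone marrow.

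Both other genes of this group, which lie outside the ring, fell as well. Mcm10, which helps the helicase to start, had a difference of -3.42 ± 0.31, and all 4 of its small intestine libraries lay below its bone marrow libraries. Mcm8, a helicase subunit of recombination repair, had 261, 279, 322 and 269 normalised counts in bone marrow against 52.4, 43.0, 29.5 and 7.11 in small intestine (-3.20 ± 0.49, adjusted p 0.00106). SI_11 was far below the other small intestine libraries in this gene. The ratio of Mcm8 to Mcm7 reads did not separate the tissues (0.66 higher in small intestine on the log2 scale, exact p = 0.286, adjusted p = 0.286).

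The cofactors that turn the loaded ring into the active CMG helicase fell by a similar amount. All 5 were lower, with a median difference of -4.004 and a range from -4.21 to -1.72. Cdc45 had 1655, 1543, 1702 and 1530.2 normalised counts in bone marrow against 122, 62.4, 75.5 and 81.8 in small intestine (-4.21 ± 0.23). It is the member shown above without E2F-like letters near its start. The 4 subunits of the GINS complex, which join it in equal numbers, did not move evenly. Gins1, Gins2 and Gins3 had differences of -4.004, -4.12 and -3.51, but 67.3% of the exon bases of Gins2 are shared with Gse1 on the other strand. Gins4 had 619, 623, 579.9 and 549 in bone marrow against 269, 115, 145 and 218 in small intestine (-1.72 ± 0.28, adjusted p 0.00156). Its level per length in small intestine, 21.3 ± 6.61, lay far above those of Gins1 (2.03 ± 1.05) and Gins3 (1.31 ± 0.571). In bone marrow Gins4 already stood above them, at 57.4 ± 4.58 against 29.4 ± 2.72 for Gins1 and 13.9 ± 3.35 for Gins3.

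All 9 polymerase and primase genes were lower, with a median difference of -2.81 and a range from -4.31 to -1.26. Pole, the catalytic subunit of the leading strand polymerase, had 1667, 1654, 1654 and 1556 normalised counts in bone marrow against 206, 66.6, 74.4 and 36.7 in small intestine (-4.31 ± 0.45). Pold1, the catalytic subunit of the lagging strand polymerase, had 863, 785, 878 and 658 in bone marrow against 155, 104, 82.0 and 109 in small intestine (-2.81 ± 0.24). The ratio of Pold1 to Pole reads ranged from 0.423 to 0.531 in bone marrow and from 0.751 to 2.97 in small intestine, 1.52 higher on the log2 scale (exact permutation test, p = 0.0286, adjusted p = 0.0381). Pole has more exon bases, and per length Pold1 stood at 21.4 ± 3.72 and Pole at 19.2 ± 2.16 in bone marrow. In small intestine they stood at 3.60 ± 0.811 and 1.34 ± 0.987. Prim1, which holds the primase active site, had 1429.7, 1554, 1713 and 1385 in bone marrow against 189.9, 95.7, 66.7 and 62.8 in small intestine (-3.96 ± 0.34), and Pola1, the polymerase that extends its primers, 1825, 1998, 1739.7 and 1918 in bone marrow against 284, 269, 221 and 154 in small intestine (-3.03 ± 0.23). Prim1 fell further than Pola1, while Prim2, the other primase subunit, fell less than either (-2.18 ± 0.18). The ratio of Prim1 to Pola1 reads was 0.96 lower in small intestine on the log2 scale (p = 0.0286, adjusted p = 0.0381, exact permutation test). The groups were apart, with 0.722 to 0.985 in bone marrow against 0.302 to 0.669 in small intestine. Pola1 has more exon bases, and per length Prim1 stood at 51.7 ± 9.72 and Pola1 at 27.7 ± 2.80 in bone marrow. In small intestine they stood at 4.17 ± 2.22 and 4.16 ± 1.16. Pold3, an accessory subunit that also serves translesion synthesis, changed the least (1149, 1198, 1197 and 968 in bone marrow against 509, 444, 470.4 and 444 in small intestine, -1.26 ± 0.17).

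The sliding clamp and its loader held the exception to the general fall. Pcna, the ring that tethers polymerases to DNA, had 3149.7, 3164, 2482 and 2585 normalised counts in bone marrow against 403, 294, 301 and 245 in small intestine (-3.19 ± 0.22). Its bone marrow level per length, 154 ± 1.44, was above that of the other 44 members. Of the 5 genes of the clamp loader, RFC, 4 were lower. Rfc1, the large subunit, had 2562, 2504, 2658 and 2415 in bone marrow against 997, 803, 713 and 890.2 in small intestine (-1.58 ± 0.18). Rfc4, a small subunit, had 375, 413, 375 and 361 in bone marrow against 60.0, 61.0, 60.2 and 40.3 in small intestine (-2.72 ± 0.20), and 12.7% of its exon bases are shared with Eif4a2. The ratio of Rfc1 to Rfc4 reads was 6.06 to 7.09 in bone marrow and 11.9 to 22.1 in small intestine, a rise of 1.19 on the log2 scale (exact permutation test, p = 0.0286, adjusted p = 0.0381). Rfc1 has more exon bases, and per length it stood at 55.3 ± 7.69 against 32.5 ± 3.07 for Rfc4 in bone marrow. In small intestine the levels were 22.0 ± 1.88 and 5.73 ± 1.40. Rfc2 (ENSMUSG00000023104, chr5:134581366-134601805, plus strand) was the only member with a higher mean in small intestine. It had 908, 893, 996 and 791 normalised counts in bone marrow against 982, 1262, 1137 and 1301 in small intestine, where SI_6 was lowest and lay within the range of bone marrow. The difference was 0.38 ± 0.19, with a 95% interval of -0.05 to 0.80 and an adjusted p of 0.161. Without SI_6 it was 0.46 and passed the test (adjusted p 0.0434), and with libraries centred on their medians it was -0.52 and did not (adjusted p 0.383). Its level per length in small intestine was 29.2 ± 4.27, above the other 44 members there, and that of Rfc4 was 5.73 ± 1.40. Lat2, on the other strand, shares 15.1% of the exon bases of Rfc2 and had means of 10.97 normalised counts in bone marrow against 31.3 in small intestine.

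Genes for RPA, the trimer that coats single-stranded DNA at forks and at sites of repair, showed the mildest group change. All 3 were lower, with a median difference of -1.71 and a range from -1.97 to -1.03. Rpa1 had 1259, 1161, 1198 and 1072 normalised counts in bone marrow against 333, 323, 333 and 443 in small intestine (-1.71 ± 0.19), and Rpa3 had 360.1, 425, 406 and 353 in bone marrow against 148, 80.4, 74.4 and 92.5 in small intestine (-1.97 ± 0.25). Rpa2 had 824, 848, 829.6 and 647 in bone marrow against 461, 643, 263 and 271 in small intestine, so that SI_7 came close to BM_5 (-1.03 ± 0.32, adjusted p 0.0346). Its call was lost without BM_1, BM_3, BM_4, SI_10 or SI_11, with adjusted p of 0.0789 to 0.0872. The ratio of Rpa1 to Rpa2 overlapped between tissues (-0.68 on the log2 scale, exact p = 0.143, adjusted p = 0.163).

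The pair of genes for finishing Okazaki fragments could not be judged alike. Lig1, the ligase that seals the fragments, had 2773, 2837, 2525 and 2513 normalised counts in bone marrow against 473, 377, 352 and 414 in small intestine (-2.72 ± 0.18). Fen1 (ENSMUSG00000024742, chr19:10199132-10204169, minus strand), the flap nuclease that trims them, had only 14, 6, 11 and 2 reads in bone marrow and 3, 1, 0 and 0 in small intestine. Its groups overlapped, and the difference of -1.53 ± 0.52 missed the threshold (adjusted p 0.0503). It passed under 6 of 17 alternatives, which were SI_6 left out (0.0300), BM_5 left out (0.0390), both forms of median centring, quantile normalisation and voom. Of the exon bases of Fen1, 78.8% are shared with Gm10143, an antisense gene that had means of 23.3 normalised counts in bone marrow against 4.29 in small intestine, and the strand setting of the counting is not stated by the sources. Fen1 was the only member with a mean under 10 reads, and its level could not be read from these libraries.

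Genes that act on chromatin behind the fork included the largest fall of all members. All 4 of this group were lower, with a median difference of -4.23 and a range from -5.45 to -2.56. Uhrf1 (ENSMUSG00000001228, chr17:56303321-56323486, plus strand), which recruits DNA methyltransferase to newly copied DNA, went from 3005, 2968, 3428 and 2643 normalised counts in bone marrow to 188, 65.2, 50.3 and 27.3 in small intestine. The difference was -5.45 ± 0.50 (adjusted p 6.44e-05), and SI_6 was well above the other small intestine libraries. Clspn, a mediator of the replication checkpoint, had a difference of -3.97 ± 0.23. The large and middle subunits of chromatin assembly factor CAF-1, which deposits histones on new DNA, parted from each other. Chaf1a had 865, 1028, 1025 and 698 in bone marrow against 60.0, 37.4, 40.5 and 17.8 in small intestine (-4.50 ± 0.34), and Chaf1b had 686, 653, 647 and 512 in bone marrow against 124, 112, 83.1 and 93.6 in small intestine (-2.56 ± 0.21). The ratio of Chaf1a to Chaf1b reads was 1.26, 1.57, 1.58 and 1.36 in bone marrow and 0.482, 0.333, 0.487 and 0.190 in small intestine, a change of -2.01 on the log2 scale (exact permutation test, p = 0.0286, adjusted p = 0.0381). Chaf1a has more exon bases, and per length Chaf1b was the higher of the pair in both tissues (17.4 ± 2.21 against 13.3 ± 2.74 in bone marrow, 3.46 ± 0.592 against 0.696 ± 0.304 in small intestine). Ubxn6, on the other strand, shares 52.5% of the exon bases of Chaf1a.

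**Figure D3:**
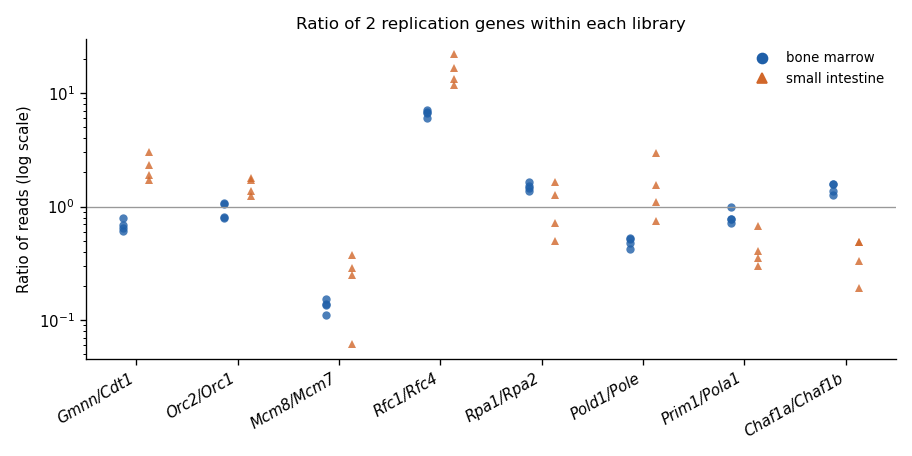
Ratio of the reads of 2 replication genes within each library (y axis, log scale), for 8 pairs, with blue circles for the 4 bone marrow and orange triangles for the 4 small intestine libraries. The tissues are apart in 6 pairs and overlap in Mcm8/Mcm7 and Rpa1/Rpa2, and Gmnn/Cdt1 lies below 1 in all bone marrow and above 1 in all small intestine libraries.

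Such ratios do not depend on how libraries are scaled to each other. Of the 8 examined, 6 were apart between tissues, and the remaining ratio within the origin complex, Orc2 to Orc1, was 0.71 higher in small intestine on the log2 scale (0.789 to 1.07 in bone marrow, 1.24 to 1.80 in small intestine, exact permutation test, p = 0.0286, adjusted p = 0.0381). How often ratios of other gene pairs were apart in this way was not computed, so the count describes these 8 pairs only. Within them, replication genes fell by unequal amounts, also between partners of the same complex.

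Libraries of a tissue ordered themselves similarly across members. SI_6 was the highest small intestine library in 35 of the 45 members (77.8%), against 33.9% of the genes that averaged 10 reads or more. Its members lay a median of 0.56 above the median of the other 3 small intestine libraries, and 40 of 45 were above it, while the median offset of all genes of this depth was 0.0061. The sum of epithelial markers was also highest in SI_6. So was that of B and plasma cell markers, with 1258 RPM in SI_6, 936 in SI_7, 246 in SI_10 and 541 in SI_11. Of the fibroblast and endothelial markers 9 of 10 were highest in SI_6, and of the monocyte and macrophage markers 7 of 12, though the sums of these lists were not. The part of any of these in the offset was not tested. In bone marrow BM_5 was lowest in 34 of the 45 members (75.6%), against 34.9% of genes of this depth, with a median offset of -0.17. BM_5 also had the highest sum of eosinophil markers among the bone marrow libraries and the lowest ratio of Mpo to Epx, and the part of this was not tested. The median SD between libraries was 0.14 in bone marrow against 0.39 in small intestine for the members, and 0.23 and 0.31 for genes that averaged 10 reads or more. By these medians the bone marrow libraries were closer to each other in the members than in genes at large, and the small intestine libraries were further apart. The genes at large were not matched to the members for read depth, and the part of depth in this contrast was not tested. Depth limits the small intestine values, because the 45 members together had 6664 to 10112 reads in a library there, against 56945 to 90818 in bone marrow.

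**Figure D4:**
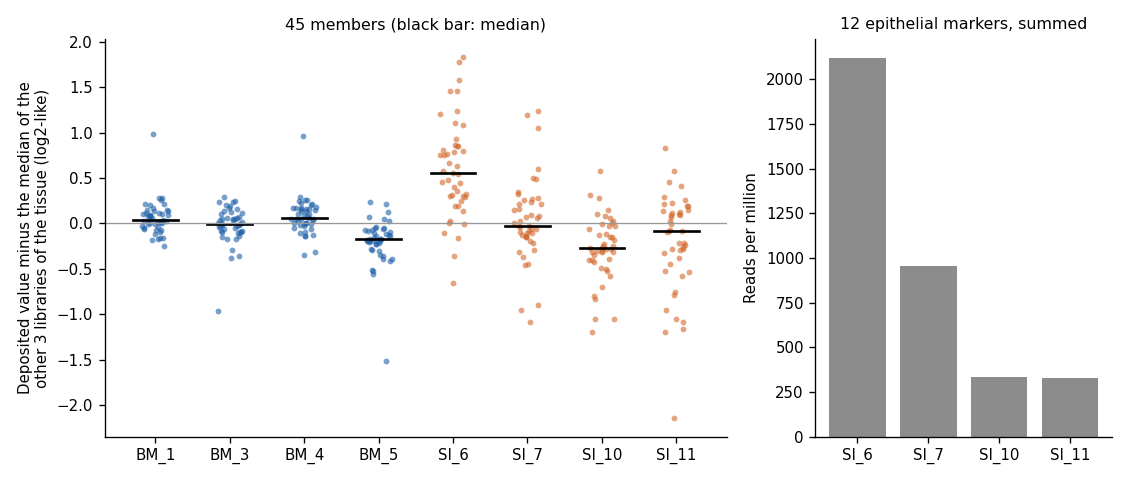
Left, deposited value of each of the 45 members in a library minus the median of the other 3 libraries of its tissue (y axis, log2-like), with blue points for bone marrow, orange points for small intestine and a black bar for the median. SI_6 sits highest with a median of 0.56 and BM_5 lies below the other bone marrow libraries with -0.17. Right, summed RPM of 12 epithelial markers in the small intestine libraries, from 2118 in SI_6 to 325 in SI_11.

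Other genes of the replication machinery, in a list of 30, mostly followed. Of them 25 were lower, 2 were higher and 3 did not pass the test (Orc4, Mcm9 and Top1, named after their values were seen), with a median difference of -2.51. Of all genes 12.9% were called lower and 22.0% higher, and of those that averaged 10 reads or more 28.6% and 34.6%. The largest falls were those of Asf1b, a histone chaperone of dividing cells (-4.95 ± 0.24), Exo1, a nuclease of mismatch repair (-4.46 ± 0.36), and Ticrr, which helps to fire origins (-4.33 ± 0.41). Top2a, the topoisomerase that untangles copied DNA, had 11654, 12612, 12219.7 and 12543 normalised counts in bone marrow against 1795, 811, 431 and 456 in small intestine, where SI_6 was highest (-4.06 ± 0.43). Mki67, the common marker of cycling cells, had 29159, 30024, 28552 and 32209.6 in bone marrow against 5578, 3809, 2695 and 2499.8 in small intestine (-3.11 ± 0.28). Both were lower in every small intestine library than in any bone marrow library. Donson, a fork protection and origin firing factor, rose from 238, 241, 261 and 246 in bone marrow to 724, 1061, 1052 and 1164 in small intestine (1.98 ± 0.21), and Pold4, the smallest subunit of polymerase delta, from 237, 195, 206 and 112 in bone marrow to 358, 406, 546 and 644 in small intestine (1.38 ± 0.30). With libraries centred on their medians neither rise passed the test (1.08, adjusted p 0.0537 for Donson, and 0.48, adjusted p 0.432 for Pold4). With quantile normalisation or RPM, 2 genes of this list were called higher, and against a difference of 1 log2 unit 1 was. Mcm9 had a difference of -0.34 and Top1 one of 0.23, and neither passed the test.

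Regulators of entry into S phase were mostly lower. Of 33, 22 were lower, 8 were higher and 3 were not called (Rb1, Ccnd2 and Cdkn1c, named after their values were seen). Among the genes that averaged 10 reads or more, 28.6% were called lower and 34.6% higher, and among all genes 12.9% and 22.0%, so that the share of higher calls in this list is near or below the background. E2f1, an activating E2F factor, had 874, 1077, 919.6 and 742 normalised counts in bone marrow against 79.7, 88.8, 91.9 and 69.9 in small intestine (-3.39 ± 0.20), and Ccne1, the cyclin that starts S phase with CDK2, had 197, 197, 199.99 and 170.1 in bone marrow against 46.9, 23.6, 12.033 and 8.30 in small intestine (-3.11 ± 0.43). The largest falls were those of Dtl, the adaptor that marks CDT1 for destruction in S phase (-4.81 ± 0.40), and of the repressive factors E2f8 (-4.22 ± 0.28) and E2f7 (-3.98 ± 0.29). The 3 largest rises were those of Cdkn1a, Cdkn1b and Cdkn2b, all inhibitors of cyclin-dependent kinases. Other inhibitors of the list, chosen after their values were seen, did not move one way. Cdkn2c (-3.11 ± 0.26, adjusted p 3.92e-05) and Cdkn2d (-1.32 ± 0.28, adjusted p 0.00599) were lower, and Cdkn1c (1.17 ± 0.67, adjusted p 0.216) was not called. Cdkn2a was called higher (1.017 ± 0.34, adjusted p 0.0459), but 15 of 17 alternatives lost the call. Cdkn1a, which encodes p21, had 73.6, 125, 79.4 and 52.1 in bone marrow against 2673, 3717, 5167 and 5905 in small intestine (5.66 ± 0.34, adjusted p 7.45e-06). Cdkn1b, which encodes p27, had 480.4, 498, 366 and 507 in bone marrow against 1691, 2283, 3442 and 3499 in small intestine (2.498 ± 0.28). Cdkn2b, which encodes p15, had only 1, 1, 1 and 2 reads in the bone marrow libraries and 97.1, 65.2, 31.7 and 19.0 normalised counts in small intestine (3.65 ± 0.45). In all 3 every small intestine library was above every bone marrow library, and the rises passed the test also with libraries centred on their medians. Among the small intestine libraries SI_6 was lowest in Cdkn1a and Cdkn1b and highest in Cdkn2b. The order of these libraries in Cdkn2b was that of their epithelial marker sums (2118, 957, 334 and 325 RPM). The part of epithelial reads in the rise of Cdkn2b was not tested.

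**Figure D5:**
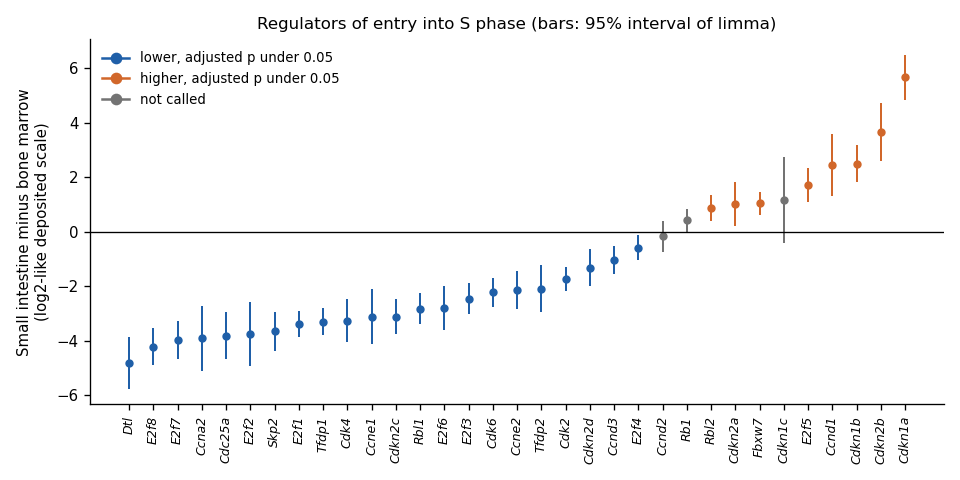
Difference between tissues (y axis, deposited log2-like scale, small intestine minus bone marrow) of 33 regulators of S phase entry, with bars for the 95% interval of limma. Blue marks 22 genes called lower, orange 8 called higher and grey 3 not called, and Cdkn1a stands furthest to the right.

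A list of translesion and repair polymerases with some related genes had a smaller median change than the polymerases of the fork. It also holds the ligases Lig3 and Lig4, the adaptor Mad2l2, the mitochondrial RNA polymerase Polrmt, and Polg and Polg2 of the mitochondrial DNA polymerase. Of these, Polg2 was called higher and the others lower. Of 17 genes in this list, 10 were lower, 4 were higher and 3 were not called, with a median difference of -0.66, between the -2.81 of the fork polymerases and primase and the 0.37 of all genes. The count of lower calls depended on single libraries, with 5 without BM_1 or BM_4 and 6 without BM_3 or SI_7. The shares over all genes were 12.9% lower and 22.0% higher, and over those that averaged 10 reads or more 28.6% and 34.6%. Polq, the polymerase of end joining by short homologies (-3.88 ± 0.30), Polh, which copies past ultraviolet damage (-2.67 ± 0.19), and Rev1, a scaffold of translesion synthesis (-2.33 ± 0.17), fell the most. Polm, an end joining polymerase, had 113, 140.2, 127 and 116 normalised counts in bone marrow against 314, 318, 307 and 334 in small intestine (1.34 ± 0.17). Polg2, the accessory subunit of the mitochondrial polymerase, had a difference of 0.98 ± 0.19, and Primpol, a primase that restarts stalled forks, one of 0.73 ± 0.18. None of the 4 rises of this list passed the test with libraries centred on their medians, and Primpol was then at -0.17. Those medians were taken over all 38392 genes, of which 22177 averaged fewer than 10 reads. With quantile normalisation, RPM or voom, 4 genes of this list were called higher, and against a difference of 1 log2 unit 0 were.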

How the data were processed

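The 8 libraries were made by the study from amplified cDNA (NuGEN Ovation) of sorted eosinophils and read from a single end. Per the labels and the study's methods, reads were aligned to GRCm38 and counted per gene with nf-core/rnaseq. The log2-like values deposited by the authors come from their variance stabilisation in DESeq2 (R 4.0.3). Not given in the sources used here are the aligner, the strand setting and how multi-mapped reads were treated. Shared exons were therefore computed from GENCODE M21.

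The transformation was inverted from the lowest deposited value, 0.92971568. The inverted values times a size factor per library were whole reads within 0.05 for 100% of values. The recovered totals per library, 11508002 to 21289164 reads, limit precision in the 22177 genes averaging fewer than 10 reads. Column names gave each library's tissue, 0 columns were left unmapped, and columns could not be tied to single samples. Levels per length used union exon lengths.

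Tissues were compared on the deposited values of all 38392 genes with limma 3.58.1 in R 4.3.3 (2-sided, constant prior, no filter or covariate, Benjamini-Hochberg). On simulated reads for small intestine against bone marrow (32640 genes, 200 changed) limma recovered 26% of changes of 1 log2 unit and 92% of 2. It made 59 false calls, 0 of them in genes with a mean of 10 reads or more. The simulation gave all genes and both tissues the same dispersion and kept the size factors known. In the data 13402 genes were called, so these rates need not hold there. The 8 ratios used a pseudocount of 1 and exact permutation tests over 70 assignments, with a smallest p of 0.0286. Tables and figures were made in Python 3.11.15 (pandas 2.3.3, numpy 2.4.6, matplotlib 3.10.9).

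The 45 members and all lists were chosen with earlier results of these data known. Values in every library are given, by rule, for the largest and smallest difference and the highest bone marrow level per length of each role, for members not called lower and for those in ratios, and other lists are named by the 3 largest rises and falls with Mki67, Top2a, E2f1, Ccne1 and Cdkn1a. The members without a matched promoter were Gmnn, Gins1, Gins2, Gins4, Mcm4, Pole, Prim2 and Rfc2.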

Additional observations from a re-analysis of the deposited data

Results flagged for a closer look

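In 156 groups of 4 libraries, 2 for each of the 78 genes examined, 9 had a library far from the other 3 (Dixon's test at 95%, by the gap as a share of the group's range). Chance gives about 1 in 20, or 7.8. Among members, SI_6 was highest of small intestine in Orc1 (0.901, 72.0 normalised counts against 56.9 to 58.2). SI_11 was lowest in Rfc4 (0.96, 40.3 against 60.0 to 61.0) and highest in Rpa1 (0.906, 443 against 323 to 333). BM_5 was lowest of bone marrow in Pole (0.88, 1556 against 1654 to 1667) and in Rpa2 (0.893, 647 against 824 to 848). In the other lists, BM_5 was lowest in Ccne1 (0.904, 170.1 against 197 to 199.99), BM_4 was lowest in Cdkn1b (0.835, 366 against 480.4 to 507) and highest in Polq (0.833, 1366 against 1158 to 1190.0), and BM_1 was lowest in Exo1 (0.916, 936 against 977 to 981). Of the 9, 3 fell in BM_5.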

How the results depend on the processing

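Of the 43 members called lower, 37 were called under all 18 alternatives, and 0 changed sign under any of them. Gins4, Orc3, Orc5, Pold3 and Rfc5 missed the threshold only when tested against a difference of 1 log2 unit, and Rpa2 missed it there and without BM_1, BM_3, BM_4, SI_10 or SI_11. Members called lower ranged from 42 to 44 without single libraries, and 37 passed against 1 log2 unit. Members called higher were 1, Rfc2, under voom, with a filter of 10 reads, with a mean-dependent prior and without SI_6. Centring libraries on their medians gave a median difference of members of -3.71. With it, 0 other replisome genes, 4 S phase regulators and 0 genes of the translesion and repair list were called higher. It turned Rfc2 (-0.52), Primpol (-0.17), Orc4 (-0.89), Top1 (-0.67), Rb1 (-0.48) and Rbl2 (-0.032), since it lowers all small intestine values alike. Orc4 was also below 0 with centring over genes of at least 10 reads (-0.054, an alternative added after the data were seen), RPM (-0.24), voom (-0.0001) and without BM_4, SI_7 or SI_11 (from -0.048, against 0.065 without SI_10), and Top1 with quantile normalisation (-0.22) and RPM (-0.034). Against 1 log2 unit 5076 of all genes were called, with 1 other replisome gene and 3 S phase regulators higher. In the translesion and repair list 3 genes were then lower and 0 higher. Genes of that list called lower ranged from 5 to 9 without single libraries, with 5 without BM_1 or BM_4 and 6 without BM_3 or SI_7. The share of lower calls among all genes called was 36.8%, 70.5% after median centring, 54.2% after quantile normalisation and 50.4% with RPM. Each of the 8 ratios kept its direction with a pseudocount of 5 and without single libraries, and its side of the threshold with a pseudocount of 5, the only alternative with a test. The tissues were compared without pairing. The sample titles give each sample a number of its own, shared with no sample of the other tissue, and the columns share none either.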

Other observations

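The D-type cyclins and their kinase partners were named after their values were seen. Both kinases fell, and the difference of Cdk4 was -3.27 ± 0.33 (limma adjusted p 0.00011). The cyclins did not move one way. Ccnd3 was lower (-1.03 ± 0.21, limma adjusted p 0.00507), Ccnd2 was not called (-0.16 ± 0.23), and only Ccnd1 was higher. Cdk6, a kinase that pairs with D-type cyclins, had 45532, 43769, 45353 and 42291 normalised counts in bone marrow and 7250.2, 8895, 9329 and 13201 in small intestine (-2.23 ± 0.22, limma adjusted p 0.000103), and still had more counts in small intestine than any of the 45 replication genes. Ccnd1, a cyclin of early division, had 32.2, 29.998, 27.8 and 26.0 in bone marrow and 446, 218, 76.6 and 121 in small intestine (2.45 ± 0.48, adjusted p 0.00432). It was highest in SI_6, the library with the most epithelial reads, and the part of those reads was not tested. E2f5, a repressive E2F factor of resting cells, had 22.2, 30.7, 38.3 and 17.7 in bone marrow and 107, 97.1, 82.0 and 91.3 in small intestine (1.71 ± 0.25), and Rbl2, a pocket protein of resting cells, 1316, 1123, 1378 and 1208 in bone marrow and 1893, 2363, 2252 and 2724 in small intestine (0.87 ± 0.19). With libraries centred on their medians E2f5 was at 0.81 and did not pass the test, and Rbl2 was at -0.03. E2f5, Rbl2 and Rb1 were also named after their values were seen, and others of the list went the other way. E2f5 was the only E2F factor called higher, and E2f4 was called lower (-0.58 ± 0.19, limma adjusted p 0.0436). Rbl1 was lower as well (-2.82 ± 0.23). Rb1 had 1553, 1553, 1524 and 1539 in bone marrow and 1972, 2281, 1902 and 2128 in small intestine (0.42 ± 0.17, adjusted p 0.0852).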
